A study of Mus musculus with 27 samples.

Results

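The 10 glycolysis genes Slc2a1, Hk2, Gpi1, Pfkl, Pfkp, Aldoa, Tpi1, Pgk1, Pkm2 and Ldha were followed across colon monocytes, macrophages and type 1 conventional dendritic cells (cDC1s) and across splenic CD4 T cells of WT and Mbd2-/- mice. A probe belonged to a gene where its symbol in the deposited intensity table was the gene's name, which gave 18 of 45281 probes for 9 of the 10 genes. No probe carried the symbol Hk2, the hexokinase that starts the pathway in many activated cells, and Hk2 was not analysed here. The samples were 27 bead arrays: 5 of WT and 5 of Mbd2-/- monocytes, 5 and 5 of macrophages, 2 and 3 of cDC1s, and 1 and 1 of CD4 T cells. All colon cells, WT included, were sorted from the lamina propria of mice given 2% dextran sodium sulfate (DSS) in the drinking water, which injures the epithelium and causes colitis, so untreated colon cells form no group here. Monocytes were gated as Ly6C+ F4/80- CD11b+ cells, macrophages as F4/80+ MHC-II+ Ly6C- CD11b+ cells, and the cDC1s, labelled CD11b-negative DCs, as CD103+ CD11b- CD11c+ cells. The splenic CD4 T cells came from a T cell transfer model of colitis at 6 weeks, so they differ from the colon cells in tissue and in the disease model as well as in cell type. Mbd2 encodes a reader of methylated DNA, and the knockout was global on the C57BL/6 background with littermate WT controls, so every cell of an Mbd2-/- animal lacked the gene. An array could hold the pooled RNA of several mice, and p-values measure the spread between these pools.

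Glycolysis turns glucose into pyruvate. Slc2a1 (Glut1) carries glucose in, Hk2 phosphorylates it, Gpi1 isomerises the product, and the phosphofructokinases Pfkl and Pfkp commit it to the pathway. Aldoa splits the resulting sugar into triose phosphates, which Tpi1 interconverts. Pgk1 makes ATP, Pkm2 yields pyruvate, and Ldha reduces pyruvate to lactate. In monocytes, macrophages and dendritic cells that meet microbial products the pathway is known to rise, and hypoxia-inducible factor 1, made of Hif1a and Arnt, is a known transcriptional driver of many of its genes. The transcripts below say nothing of enzyme activity or flux, and in RNA from a sorted population fewer cells expressing a gene and less RNA of it per cell cannot be told apart.

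Because hypoxia-inducible factors bind DNA through a core that often reads ACGTG, the 250 bases before each annotated start of the genes were searched for those letters on both strands, in RefSeq windows of the mouse build GRCm38.p6. Of 32851 such windows, 16.6% held the letters and 1.95% held them in at least 2 places. Among the 14 windows of the 10 genes, 7 held them, and these belonged to 6 genes: Slc2a1, Hk2, Aldoa, Pgk1, Pkm2 (Pkm in RefSeq) and Ldha. The Aldoa windows that held them overlap, and their match is the same stretch. The letters contain a CpG dinucleotide, and the share over all windows was not matched for CpG number. No match lay in the windows of Gpi1, Pfkl, Pfkp and Tpi1. The windows of 4 genes are given 5′ to 3′ on the gene's strand and end at the base before the start: Slc2a1 and Pfkp because they differed most between the cell types, and Pgk1 and the first Ldha start because each holds the letters in more than 1 place. Capitals mark ACGTG or its complement CACGT, which overlap where the letters read CACGTG, the E-box that Myc family factors also bind.
Slc2a1, chr4:119108495-119108744, plus strand: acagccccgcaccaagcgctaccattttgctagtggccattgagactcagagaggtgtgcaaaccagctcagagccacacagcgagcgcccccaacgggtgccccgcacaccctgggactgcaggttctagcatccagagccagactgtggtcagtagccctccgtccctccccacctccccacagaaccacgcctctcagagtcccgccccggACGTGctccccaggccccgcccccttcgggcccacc
Pfkp, chr13:6648772-6649021, minus strand: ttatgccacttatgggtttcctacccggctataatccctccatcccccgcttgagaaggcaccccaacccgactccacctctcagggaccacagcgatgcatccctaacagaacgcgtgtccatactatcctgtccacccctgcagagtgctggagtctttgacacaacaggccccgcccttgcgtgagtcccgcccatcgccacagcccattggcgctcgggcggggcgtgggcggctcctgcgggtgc
Pgk1, chrX:106186850-106187099, plus strand: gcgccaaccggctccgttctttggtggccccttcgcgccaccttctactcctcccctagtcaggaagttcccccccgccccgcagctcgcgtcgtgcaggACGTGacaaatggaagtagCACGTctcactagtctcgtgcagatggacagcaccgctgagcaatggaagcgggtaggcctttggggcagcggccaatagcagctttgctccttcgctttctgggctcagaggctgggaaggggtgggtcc
Ldha, chr7:46845554-46845803, plus strand: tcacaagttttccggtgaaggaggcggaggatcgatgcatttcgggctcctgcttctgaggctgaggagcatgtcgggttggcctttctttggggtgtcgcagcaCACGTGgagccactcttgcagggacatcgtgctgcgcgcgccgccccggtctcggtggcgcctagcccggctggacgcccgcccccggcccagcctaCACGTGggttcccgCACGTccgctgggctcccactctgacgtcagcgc
The Slc2a1 window held the letters 36 bases before the start, the Pgk1 window in 2 places and the Ldha window in 3 places. The Hk2 window, which is not given here, also held them in 2 places. CpG dinucleotides, which MBD2 binds when they are methylated, numbered 13 in the Slc2a1 window, 16 in Pfkp, 17 in Pgk1 and 25 in Ldha. Over the 14 windows their median was 16.5 against 6 over all windows, and 13 of the 14 lay above that overall median. A match is a description of the letters only, and no methylation or binding was measured on these arrays.

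The arrays reported an average intensity per probe with a detection p-value against negative control beads, and all levels here are log2 values after background correction and quantile normalization of the 25 colon arrays. Mean intensity ran from 172 to 353 over the colon arrays and 16024 to 18608 probes were detected on each at p under 0.05. Of the 18 probes, 10 were detected on all 25 colon arrays, 6 on some and 2 on none, and each gene is described by its brightest tested probe. The bead-to-bead standard error of those probes had a median of 3.53% of the intensity, and their highest intensity of 9763 lay well under the 23919 of the brightest probe on the arrays. Arrays of the same group correlated at 0.965 or more over the probes and no pair held identical values. The 1 Mbd2 probe was detected on 0 of 12 WT and 0 of 13 Mbd2-/- colon arrays, so it checks no label. Summed marker levels followed the sorts, and bright genes, some of them sort gates, weigh most in them. Macrophage markers summed to 36309 to 43200 intensity units on macrophage arrays against 13571 to 18039 on monocyte arrays. Monocyte markers summed to 20033 to 28340 on monocyte arrays against at most 14237 on the other colon arrays. The cDC1 markers summed to 13759 to 15914 on cDC1 arrays against at most 2807 on the other colon arrays. Single markers did not all follow. Of 6 tested monocyte markers, 4 were lower and 1 (Csf1r) higher in macrophages than in monocytes at a limma adjusted p under 0.05. Epithelial transcripts summed to between 4331 and 16452 on the colon arrays against 236 to 269 on the T cell arrays, and their part in the results below was not tested.

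Monocytes had the highest mean level of 6 of the 9 measured glycolysis genes, and cDC1s the highest of Gpi1, Pfkp and Ldha. Against monocytes, macrophages had lower levels of 6 of the 9 (Slc2a1, Pfkl, Tpi1, Pgk1, Pkm2 and Ldha) and higher levels of 0, at an adjusted p under 0.05 in limma with the genotypes weighted equally. Over all 12136 genes tested there, 40.1% passed, 22.8% as higher and 17.3% as lower. The cDC1s had lower levels of 5 genes than monocytes (Slc2a1, Pfkl, Aldoa, Tpi1 and Pkm2) and higher levels of 3 (Gpi1, Pfkp and Ldha), where 53.8% of 12897 genes passed, 27.3% as higher and 26.5% as lower. When each array was scaled to its median alone in place of quantile normalization, that split became 1 higher (Pfkp) and 6 lower. Against macrophages, cDC1s had 4 higher (Gpi1, Pfkp, Pgk1 and Ldha) and 4 lower (Slc2a1, Pfkl, Aldoa and Pkm2), where 53.1% of 13267 genes passed, 26% as higher and 27.1% as lower, and the split was 1 to 4 under median scaling. These comparisons share arrays, since each cell type enters 2 of them. Monocyte and macrophage arrays lie in separate stretches of adjacent columns in the deposited table. A difference between those stretches and one between these 2 cell types cannot be told apart.

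**Figure D1:**
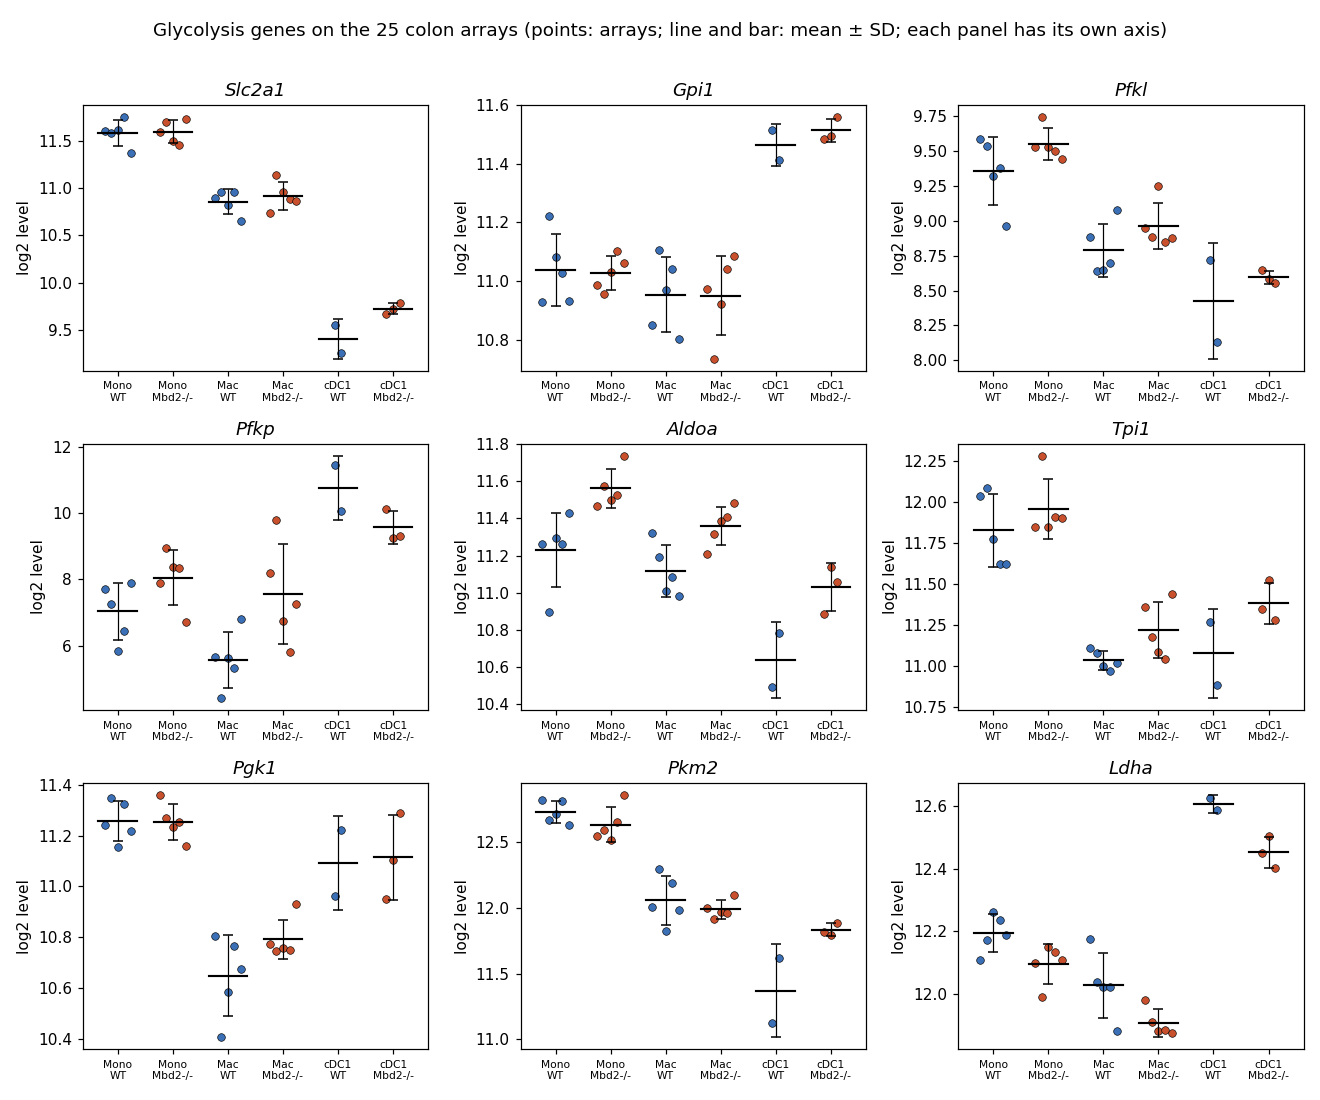
Log2 level of the brightest probe of each of the 9 measured genes (y axis, a scale of its own in each panel) in the 6 colon groups (x axis), with points for arrays (blue WT, orange Mbd2-/-) and a line and bar for mean ± SD. Slc2a1 and Pkm2 step down from monocytes to macrophages to cDC1s, Gpi1 and Ldha are highest in cDC1s, and Pfkp varies most among arrays of the same group.

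The glucose transporter Slc2a1 showed the widest step among the genes that were bright on every array. Its level had a median of 11.60 in monocytes (10 arrays, 11.37 to 11.75) and 10.89 in macrophages (10 arrays, 10.65 to 11.14). The WT cDC1 arrays stood at 9.56 and 9.26 and the Mbd2-/- cDC1 arrays at 9.67, 9.73 and 9.79. The 3 cell types did not overlap. Macrophages were lower than monocytes by 1.63-fold (log2 difference -0.70, SE 0.07, limma adjusted p = 2.1e-08), cDC1s lower than monocytes by 4.06-fold (-2.02, SE 0.08, adjusted p = 1.92e-15) and lower than macrophages by 2.49-fold (-1.32, SE 0.08, adjusted p = 4.89e-12).

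The phosphoglucose isomerase Gpi1 followed another order. Monocytes had a median of 11.03 (10.93 to 11.22) and macrophages one of 10.97 (10.74 to 11.11), and these ranges overlapped (log2 difference -0.08, SE 0.06, limma adjusted p = 0.318). All 5 cDC1 arrays lay above every other colon array, at 11.51 and 11.41 in WT and 11.49, 11.50 and 11.56 in Mbd2-/- cells. The cDC1 level was 1.37-fold that of monocytes (0.46, SE 0.08, adjusted p = 1.77e-05) and 1.45-fold that of macrophages (0.54, SE 0.07, adjusted p = 1.95e-06). Under median scaling, which shifted the median of all genes by -0.31 against monocytes and -0.33 against macrophages, the Gpi1 differences were -0.20 and 0.02, or 0.11 and 0.34 relative to those medians.

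The phosphofructokinases moved apart. Pfkl, the liver-type subunit, was highest in monocytes, with a median of 9.51 (8.96 to 9.75), then 8.88 in macrophages (8.64 to 9.25), and was 8.72 and 8.13 in WT and 8.65, 8.58 and 8.55 in Mbd2-/- cDC1s. Only the cDC1 and monocyte arrays were fully separated. Macrophages were 1.49-fold lower than monocytes (log2 difference -0.58, SE 0.09, limma adjusted p = 1.87e-05) and cDC1s 1.92-fold lower (-0.94, SE 0.11, adjusted p = 1.6e-07). The cDC1 to macrophage difference was -0.36 (SE 0.11, adjusted p = 0.00841). It passed in 14 of 15 fits that left out 1 array. Without WT cDC1 array 26 it was -0.22 with adjusted p = 0.15. On WT arrays alone it was -0.36 with adjusted p = 0.091, and under median scaling -0.89 with adjusted p = 0.00163.

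Pfkp, the platelet-type subunit, was the most variable gene of the set and the highest relative to the other cells in cDC1s. Its brightest probe ran from 5.83 to 8.94 in monocytes (median 7.79) and from 4.42 to 9.79 in macrophages (median 6.29), where it was detected on 9 of 10 arrays. The cDC1 values were 11.43 and 10.06 in WT and 10.13, 9.24 and 9.32 in Mbd2-/- cells. All cDC1 arrays lay above all monocyte arrays, and macrophage array 20 (9.79) reached into the cDC1 range. The cDC1 level was 6.13-fold that of monocytes (log2 difference 2.62, SE 0.51, limma adjusted p = 0.000153) and 12.1-fold that of macrophages (3.59, SE 0.51, adjusted p = 2.94e-06). By genotype, the cDC1 to monocyte difference was 3.72 on WT arrays and 1.52 on Mbd2-/- arrays, the latter with adjusted p = 0.0726, and the cDC1 to macrophage difference was 5.18 and 2.00. The macrophage to monocyte difference of -0.98 (SE 0.41, adjusted p = 0.0673) did not pass. It passed in 7 of 37 other settings. These included the fit without Mbd2-/- macrophage array 20 (-1.26, adjusted p = 0.00777) and that with array weights (adjusted p = 0.0184). Another took arrays whose label numbers are 10 apart as a random block (adjusted p = 0.0396). The others left out monocyte array 3, monocyte array 8, macrophage array 15, or arrays 10, 20, 23 and 27 together. T cells also had high Pfkp levels, and summed T cell markers reached 541 to 2774 intensity units on the cDC1 arrays against 288 to 669 on monocyte and macrophage arrays and 26417 and 27209 on the T cell arrays. The cDC1 array with the highest Pfkp level, array 23, had the highest T cell sum, while the Pfkp levels of arrays 26 and 30, with sums of 719 and 541, were still above all monocyte arrays; the part of T cell RNA in the difference was not tested.

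Aldoa and Tpi1, which make and interconvert the triose phosphates, differed in where macrophages stood. Aldoa had medians of 11.45 in monocytes (10.89 to 11.74) and 11.26 in macrophages (10.98 to 11.48), a difference of -0.16 (SE 0.07) that did not pass (limma adjusted p = 0.0959). In cDC1s Aldoa was 10.49 and 10.78 in WT and 10.89, 11.14 and 11.06 in Mbd2-/- cells. That was 1.48-fold below monocytes (-0.56, SE 0.09, adjusted p = 1.26e-05) and 1.32-fold below macrophages (-0.41, SE 0.09, adjusted p = 0.000547), with overlapping arrays in both. Tpi1 instead was lower in both other cell types than in monocytes, whose arrays at 11.62 to 12.28 (median 11.87) did not overlap with macrophages at 10.97 to 11.44 (median 11.08). Tpi1 in cDC1s was 11.27 and 10.89 in WT and 11.35, 11.52 and 11.28 in Mbd2-/- cells. Macrophages were 1.70-fold lower (-0.76, SE 0.08, adjusted p = 9.93e-08) and cDC1s 1.58-fold lower than monocytes (-0.66, SE 0.10, adjusted p = 7.41e-06), and cDC1s and macrophages differed by 0.10 (SE 0.10, adjusted p = 0.422), or by -0.41 under median scaling.

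The 2 ATP-making steps, Pgk1 and Pkm2, were both lower in macrophages than in monocytes. Pgk1 had a median of 11.25 in monocytes (11.15 to 11.36) and of 10.75 in macrophages (10.41 to 10.93), with no overlap (1.45-fold, log2 difference -0.54, SE 0.06, limma adjusted p = 4.44e-07). In cDC1s Pgk1 was 10.96 and 11.22 in WT and 10.95, 11.10 and 11.29 in Mbd2-/- cells, above every macrophage array (0.38, SE 0.08, adjusted p = 0.000249) and within or below the monocyte range (-0.15, SE 0.08, adjusted p = 0.109). Under median scaling the difference from macrophages turned to -0.15, or 0.17 relative to the median of all genes, and the one from monocytes was -0.82 and passed. Pkm2 fell in 2 steps: a median of 12.66 in monocytes (12.51 to 12.85) and of 11.99 in macrophages (11.82 to 12.30), with cDC1s at 11.12 and 11.62 in WT and 11.82, 11.79 and 11.89 in Mbd2-/- cells. Macrophages were 1.58-fold (-0.66, SE 0.07, adjusted p = 1.28e-07) and cDC1s 2.11-fold below monocytes (-1.08, SE 0.09), both without overlap. The step from macrophages to cDC1s (-0.42, SE 0.09, adjusted p = 0.000337) was -0.69 on WT arrays (adjusted p = 2.5e-04) and -0.15 on Mbd2-/- arrays (adjusted p = 0.301).

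Ldha, which makes lactate, was highest in cDC1s. It had a median of 12.14 in monocytes (11.99 to 12.26) and of 11.94 in macrophages (11.87 to 12.18), and in cDC1s it was 12.63 and 12.59 in WT and 12.45, 12.50 and 12.40 in Mbd2-/- cells. The cDC1 arrays were above all others, at 1.31-fold the monocyte level (log2 difference 0.39, SE 0.06, limma adjusted p = 1.3e-05) and 1.48-fold the macrophage level (0.56, SE 0.06, adjusted p = 4.68e-08). Under median scaling these differences were -0.12 and 0.16 and neither passed; relative to the median of all genes they were 0.19 and 0.49. Macrophages were slightly below monocytes (-0.18, SE 0.05, adjusted p = 0.00638), and under median scaling the difference was -0.28 and did not pass (adjusted p = 0.135). Pgk1, Ldha and other genes of the pathway have processed copies in the mouse genome, and the share of a probe's signal from such copies was not tested.

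**Figure D2:**
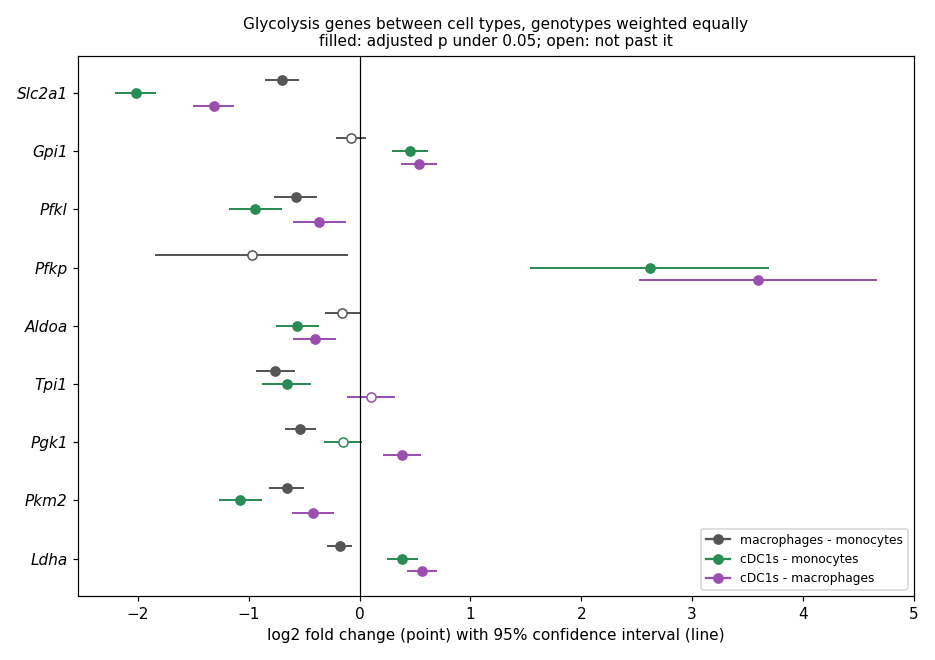
Log2 fold change (x axis) between cell types with 95% confidence intervals for the 9 measured genes (y axis), in 3 comparisons marked by colour, filled where the limma adjusted p was under 0.05. All 9 macrophage to monocyte values are below 0, Slc2a1 is lowest in cDC1s, and Pfkp is the gene with the largest positive values in cDC1s. The positive Gpi1 and Ldha values against monocytes and the positive Pgk1 value against macrophages turn negative when arrays are scaled to their median alone.

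Set side by side, the macrophage to monocyte values of all 9 genes were negative, with a median of -0.58 against 0.02 over all genes tested. The cDC1 to monocyte median was -0.56 against -0.03, and the cDC1 to macrophage median 0.10 against -0.04. With a log2 difference of at least 1 also required, 0 genes remained between macrophages and monocytes (4.85% of all genes), 3 between cDC1s and monocytes (Slc2a1, Pkm2 and Pfkp, 16.8% of all genes) and 2 between cDC1s and macrophages (Slc2a1 and Pfkp, 15.8% of all genes). The arrays of the compared cell types did not overlap for 4, 7 and 4 of the 9 genes, where 8.36%, 27.1% and 22.6% of all genes did not overlap. Transcripts of cycling genes also moved with cell type: their sum was 2806 to 4068 intensity units on cDC1 arrays, 1150 to 1521 on macrophage arrays and 620 to 811 on monocyte arrays, and their part in these differences was not tested.

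Between genotypes, few of the genes changed. In macrophages 1 of 9 genes passed (Pfkp, higher in Mbd2-/- cells), against 5.39% of 12515 genes overall and 2.63% that were higher. In monocytes 0 of 9 passed in limma (1 at an unadjusted p under 0.05, Aldoa), against 1.88% of 11992 genes after adjustment and 14.4% unadjusted. In cDC1s 0 of 9 passed (3 unadjusted: Slc2a1, Aldoa and Pkm2), against 6.7% of 13051 genes and 23.9% unadjusted. In macrophages 2 of 9 were under the unadjusted threshold (Pfkp and Aldoa), against 23.1%. The WT and Mbd2-/- arrays did not overlap for 1 gene in monocytes (Aldoa, 5.1% of all genes) and 0 in macrophages (5.18%). In cDC1s they did not overlap for 5 (Slc2a1, Aldoa, Tpi1, Pkm2 and Ldha, 32.1% with 2 against 3 arrays). The WT cDC1 arrays lie among the monocyte columns of the deposited table, and the Mbd2-/- ones among or after the macrophage columns. Mean intensity was 265 to 292 on WT and 172 to 228 on Mbd2-/- cDC1 arrays. Probes detected numbered 17443 to 17635 and 16383 to 16572. Genotype cannot be told apart from these differences in cDC1s.

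Pfkp was the 1 gene that passed. In macrophages its level was 5.67, 4.42, 5.61, 5.32 and 6.80 on the WT arrays, the second of which did not detect it, and 6.75, 5.82, 7.26, 8.19 and 9.79 on the Mbd2-/- arrays. The groups overlapped, since the highest WT array lay above 2 of the Mbd2-/- arrays. WT macrophages averaged 5.56 ± 0.85 (SD, n = 5) and Mbd2-/- macrophages 7.56 ± 1.51 (SD, n = 5), a 3.99-fold difference (2.00 on the log2 scale, SE 0.59, 95% interval 0.78 to 3.21, limma adjusted p = 0.0467). In monocytes Pfkp was 7.71, 7.27, 5.83, 6.45 and 7.89 in WT and 8.37, 8.33, 6.72, 7.88 and 8.94 in Mbd2-/- cells (1.02, SE 0.59, adjusted p = 0.471), and in cDC1s it was lower on average in Mbd2-/- cells without passing (-1.18, SE 0.85, adjusted p = 0.415). Leaving out 1 cDC1 array moved that value between -0.50, without WT array 23, and -1.87, without WT array 26. The macrophage call was lost in 7 of 10 fits without a macrophage array (11, 12, 13, 14, 18, 19 or 20), and without array 20 the difference was 1.45 with adjusted p = 0.151. Of the deposited table's sets of 6 adjacent columns, the set with 3 WT and 2 Mbd2-/- macrophage arrays gave 3.75 and the set with 2 and 3 gave 0.55, and with the sets as a fixed block the difference was 2.15 with adjusted p = 0.145. Summed neutrophil markers were 1391 to 2562 intensity units on WT and 2274 to 6244 on Mbd2-/- macrophage arrays. The methods gate all 3 colon cell types as Ly6G-. Summed monocyte markers were 9148 to 12378 on WT and 11114 to 14237 on Mbd2-/- macrophage arrays, with positive differences for 6 of 6 tested and 2 passing (Ly6c1 and Plac8). The part of these cells in the Pfkp difference was not tested.

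Aldoa was higher on average in Mbd2-/- than in WT cells of all 3 colon types, without passing in any, and under median scaling the cDC1 value turned negative. In monocytes it was 11.26, 10.89, 11.30, 11.26 and 11.43 in WT and 11.50, 11.53, 11.74, 11.47 and 11.58 in Mbd2-/- cells, so every Mbd2-/- array lay above every WT array (0.33, SE 0.10, limma adjusted p = 0.104). The difference was 0.24 in macrophages (SE 0.10, adjusted p = 0.154) and 0.39 in cDC1s (SE 0.15, adjusted p = 0.104), and 0.24 there without WT array 23. Under median scaling it was 0.05, 0.13 and -0.08, where the median of all genes moved by -0.28, -0.09 and -0.36. Weighting the arrays by their quality gave adjusted p = 0.0254 in monocytes.

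Pkm2 in cDC1s came closest to passing there. Its level was 11.12 and 11.62 on the WT arrays against 11.82, 11.79 and 11.89 on the Mbd2-/- arrays (0.46, SE 0.14, limma adjusted p = 0.0559). It passed under 4 other ways of processing (adjusted p = 0.0319 with no background correction, 0.034 with a larger offset, 0.0208 with cyclic loess and 0.0466 with a stricter filter) and without WT array 26 (0.71, adjusted p = 0.00495). Without the other WT array, 23, it was 0.21 with adjusted p = 0.538, and under median scaling 0.10. Slc2a1 (0.32, adjusted p = 0.157) and Tpi1 (0.30, adjusted p = 0.268) were also higher on all Mbd2-/- cDC1 arrays than on both WT arrays, but were -0.23 and -0.11 under median scaling and 0.17 and 0.11 without WT array 26. Ldha was lower on all of them (-0.15, adjusted p = 0.355), and 0.029 under cyclic loess. The second Pkm2 probe was lower on all of them too, at 6.88 to 7.62 against 7.65 to 7.82 in WT, the opposite of the bright probe. Markers of other cells moved with genotype on these arrays. Summed macrophage markers were 1387 and 1444 intensity units in WT against 1634 to 3826 in Mbd2-/- cDC1s, monocyte markers 6776 and 6612 against 7808 to 9742, and neutrophil markers 636 and 712 against 1107 to 2622. All 9 tested macrophage markers and all 5 tested monocyte markers had positive differences, of which 1 (C1qb) and 0 passed, as did 5 of 6 neutrophil markers, of which 1 (Ltf) passed. T cell marker sums overlapped, at 2774 and 719 in WT and 1237, 2337 and 541 in Mbd2-/- cDC1s, and the part of any of these cells in the differences was not tested. The brightest probes of Gpi1, Pfkl and Pgk1 differed between genotypes by at most 0.19 on the log2 scale in any colon cell type. In cDC1s these values were unstable: median scaling gave -0.35, -0.44 and -0.42, and Pfkl was 0.46 without WT array 23. The second Gpi1 probe was 0.52 higher in Mbd2-/- cDC1s with no overlap (limma adjusted p = 0.0946).

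**Figure D3:**
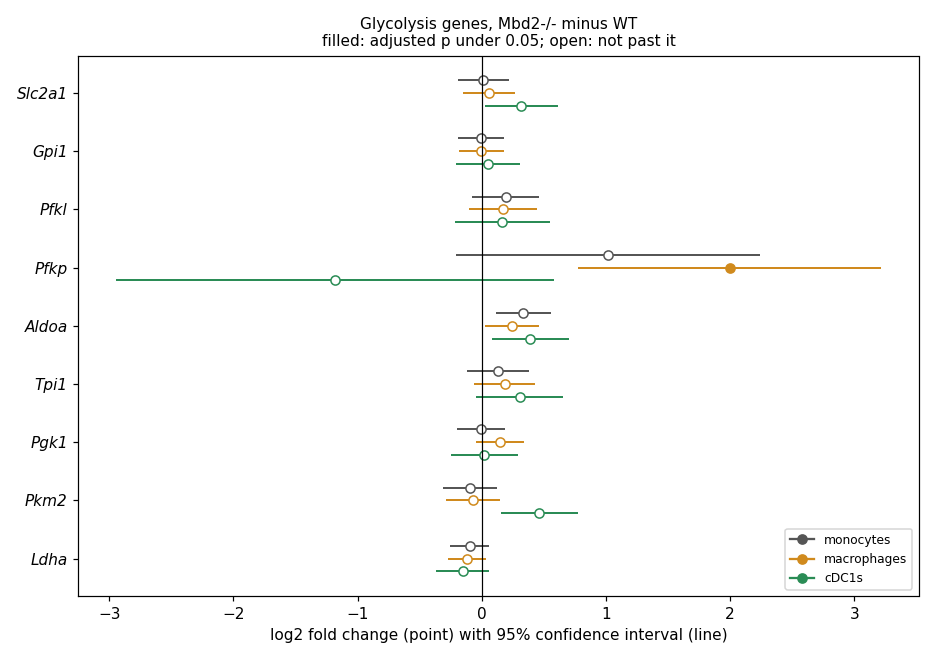
Log2 fold change of Mbd2-/- over WT (x axis) with 95% confidence intervals for the 9 measured genes (y axis) in monocytes, macrophages and cDC1s, filled where the limma adjusted p was under 0.05. Pfkp in macrophages, at 2.00, is the 1 filled point, and its intervals are several times wider than those of the other genes.

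A test of whether the genotype difference itself varied between cell types found 0 of 9 genes at an adjusted p under 0.05 in limma in each of 3 pairs. Between macrophages and monocytes 0 were under the unadjusted threshold, against 7.04% of all genes, and 0.029% passed after adjustment. Between cDC1s and monocytes 2 were (Pfkp and Pkm2), against 16%, with 0.875% after adjustment. Between cDC1s and macrophages 2 were (Pfkp and Pkm2), against 22.2%, with 6.29% after adjustment. In that last pair Pfkp stood at -3.18 (SE 1.03, adjusted p = 0.065) and Pkm2 at 0.53 (adjusted p = 0.0638), so the opposite signs of the Pfkp difference in macrophages and cDC1s were not shown to differ. Without WT cDC1 array 26 both passed.

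Several genes had more than 1 probe, and the probes did not always tell the same story. The second Pkm2 probe was lower in macrophages than in monocytes like the first (-1.82, limma adjusted p = 7.7e-04), yet higher in cDC1s than in macrophages (1.48, adjusted p = 0.0142), the opposite of the bright probe. The second Tpi1 probe was lower in macrophages (-0.32, adjusted p = 0.00409) and cDC1s (-0.84, adjusted p = 3.78e-07) than in monocytes like the first, and was also lower in cDC1s than in macrophages (-0.52, adjusted p = 2.2e-04), where the first did not pass. The second Pfkl probe was lower in macrophages than in monocytes (-0.30, adjusted p = 0.0052), and in cDC1s it was detected on 1 of 5 arrays, so its level there was near background. The second Gpi1 probe passed in no comparison. Which transcripts each probe reads could not be looked up, as no probe sequence was among the tables used here.

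**Figure D4:**
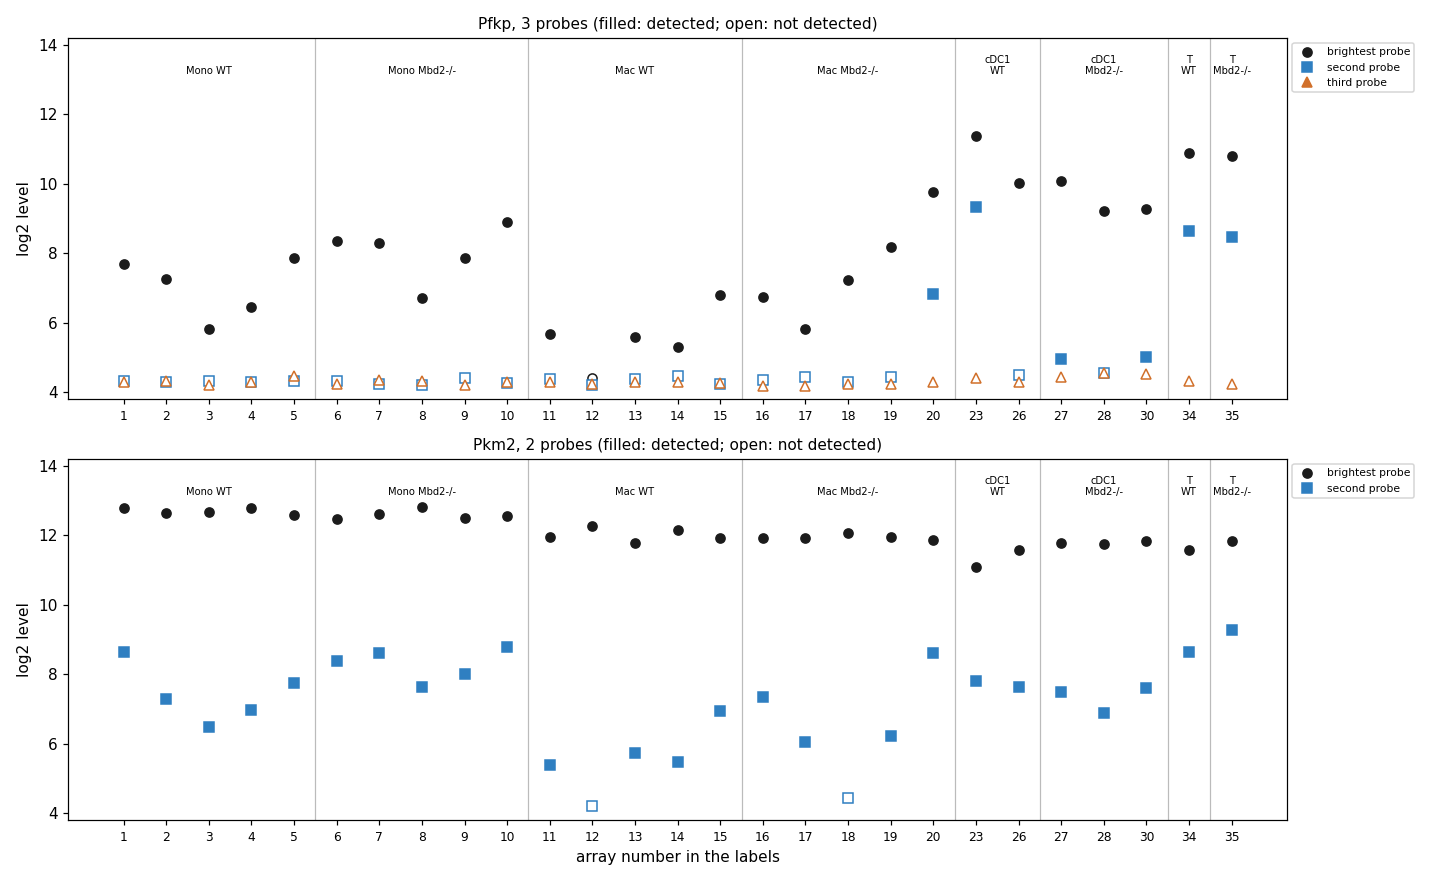
Log2 level (y axis) of the 3 Pfkp probes (top) and the 2 Pkm2 probes (bottom) on each of the 27 arrays (x axis, array number in the labels, ordered by group), filled where the probe was detected. The second Pfkp probe is near background on most arrays and high on arrays 20, 23, 34 and 35, and the second Pkm2 probe spreads more among arrays of the same monocyte or macrophage group than the first.

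The dim probes drew out the same few arrays. The second Pfkp probe was detected on 4 colon arrays, 20, 23, 27 and 30, and on both T cell arrays, at 9.37 on WT cDC1 array 23 and 6.84 on Mbd2-/- macrophage array 20, the array with the highest macrophage level of the bright probe as well. Another Pgk1 probe was detected on colon arrays 10, 20, 23 and 27 and on both T cell arrays, and another Tpi1 probe on those and on array 30. The remaining Pfkp and Pgk1 probes, 1 each, were detected on none of the colon arrays. Without arrays 10, 20, 23 and 27, a choice made after seeing the data, the Pfkp difference between Mbd2-/- and WT macrophages was 1.45 with a limma adjusted p = 0.144.

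The other enzymes and carriers of glycolysis did not follow a common direction between cell types. Of 16 tested, 5 were higher and 5 lower in macrophages than in monocytes, 4 and 4 in cDC1s than in monocytes, and 3 and 3 in cDC1s than in macrophages; under median scaling these were 4 and 5, 2 and 6, and 1 and 6. The medians of the list were 0.0045, -0.059 and -0.18. In all, 62.5%, 50% and 37.5% of the list passed, against 40.1%, 53.8% and 53.1% of all genes. The lactate exporter Slc16a3 was lower in macrophages than in monocytes (-1.77, limma adjusted p = 2.2e-11) and lower still in cDC1s (-2.22 against monocytes), where 1 of 5 arrays detected it. The carrier Slc2a6 (-1.47), the enolase Eno1 (-1.03), the hexokinase Hk1 (-0.67) and the mutase Pgam1 (-0.58, adjusted p = 0.0134) were lower in macrophages, while the carrier Slc2a8 (0.75), the ADP-dependent glucokinase Adpgk (0.60), the aldolase Aldoc (0.55) and the enolase Eno3 (0.43) were higher. In cDC1s Aldoc (2.09), Eno3 (1.42), Adpgk (0.86) and the carrier Slc2a3 (0.78) were higher than in monocytes, and Slc2a6 (-1.83), Eno1 (-1.21) and the hexokinase Hk3 (-0.83) lower. Gapdh, the step between Tpi1 and Pgk1, passed in no comparison of cell types (-0.04, -0.22 and -0.18, with adjusted p = 0.733, 0.0757 and 0.151).

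None of the tested regulators of glycolytic flux was called higher in cDC1s than in the other colon cells. Of 10 tested, 2 were higher and 3 lower in macrophages than in monocytes, and 0 were higher and 5 lower in cDC1s than in monocytes, and 0 and 4 against macrophages. The median log2 differences of the list were -0.14, -0.44 and -0.36, where those of all genes were 0.02, -0.03 and -0.04. Of the list 50%, 50% and 40% passed, against 40.1%, 53.8% and 53.1% of all genes. Pfkfb4, a bifunctional enzyme that sets the activator of phosphofructokinase, was lower in cDC1s than in monocytes (-2.77, limma adjusted p = 1.1e-16) and macrophages (-2.52), followed by Txnip, which curbs glucose uptake and was lower than in both (-1.17 against monocytes). The pyruvate dehydrogenase kinases Pdk3 (-0.86) and Pdk1 (-0.48) and the related Pfkfb3 (-0.41, detected on 1 of 5 cDC1 arrays) were also below monocytes. Against macrophages, Pfkfb2 (-0.60, detected on 3 of 5 cDC1 arrays) and Pdk2 (-0.52, detected on 2 of 5) were lower in cDC1s. Macrophages were below monocytes for Pdk3 (-0.78), Pdk1 (-0.44) and Pfkfb4 (-0.25) and above for Pfkfb2 (0.37) and the phosphatase Pdp1 (0.34).

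Most of the called genes of the hypoxia response were lower in macrophages and cDC1s than in monocytes. Of 16 tested, 1 was higher and 5 lower in macrophages than in monocytes, 2 and 8 in cDC1s than in monocytes, and 2 and 6 in cDC1s than in macrophages, with list medians of -0.22, -0.52 and -0.22. That was 37.5%, 62.5% and 50% of the list, against 40.1%, 53.8% and 53.1% of all genes. As lower, 17.3%, 26.5% and 27.1% of all genes passed. Against monocytes, Ankrd37 (-1.77 in macrophages, -1.91 in cDC1s) and the prolyl hydroxylase Egln3 (-1.41 and -1.96) were lower in both cell types. Ddit4, an inhibitor of mTORC1 (-3.61), and the angiogenic factor Vegfa (-2.74) were far lower in cDC1s than in monocytes and also lower than in macrophages (-3.19 and -2.69), as were Mxi1 (-1.14) and P4ha1 (-0.99). Narf (-0.82), Ndrg1 (-0.49) and Ddit4 (-0.42) were lower in macrophages than in monocytes, where Car9 (0.44) was higher. Vhl, which targets Hif1a for degradation, was higher in cDC1s (0.45 against monocytes, 0.79 against macrophages), as were Car9 against monocytes (0.42) and Ndrg1 against macrophages (0.57); under median scaling 0 genes of this list were higher in any of the 3 comparisons. Hif1a itself passed in none (-0.49, -0.71 and -0.23, with limma adjusted p = 0.379, 0.247 and 0.731).

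The pathways that glucose carbon enters next held calls in both directions. Of 7 genes of pyruvate entry and gluconeogenesis, 1 was higher and 0 lower in macrophages than in monocytes (Dlat, 0.23), while 3 were higher and 1 lower in cDC1s than in monocytes and 3 and 2 against macrophages, with list medians of -0.055, -0.12 and -0.061. That was 14.3%, 57.1% and 71.4% of the list, against 40.1%, 53.8% and 53.1% of all genes. Under median scaling the counts were 0 and 0, 1 and 4, and 1 and 4. The pyruvate dehydrogenase subunit Pdhb (1.78 and 1.55), the phosphatase G6pc3 (0.75 and 1.02) and the pyruvate carrier Mpc2, listed as Brp44 (0.58 and 0.64), were higher in cDC1s than in monocytes and macrophages, and the subunit Pdha1 lower (-0.48 and -0.52). Dlat was lower in cDC1s than in macrophages (-0.49). Of 9 pentose phosphate genes, 2 were higher and 4 lower in macrophages than in monocytes, and 5 and 4 in cDC1s than in either other cell type, with list medians of -0.13, 0.37 and 0.27. These were 66.7%, 100% and 100% of the list, against 40.1%, 53.8% and 53.1% of all genes. G6pdx, the entry step, was lower in macrophages (-0.43) and cDC1s (-1.43) than in monocytes, with Pgd (-0.97) and Rpe (-1.19, detected on 1 of 5 arrays) also lower in cDC1s. Pgls (0.73 against monocytes, 0.99 against macrophages), Prps1 (0.78 against monocytes) and Taldo1 (0.92 against macrophages) were higher in cDC1s. Under median scaling the cDC1 counts of the pentose phosphate genes became 0 higher and 4 lower against monocytes and 1 and 4 against macrophages.

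Of 15 genes of the tricarboxylic acid cycle, 6 were higher and 2 lower in cDC1s than in monocytes, and of 14 tested against macrophages 5 were higher and 2 lower (list medians 0.21 and 0.16). Of the list 53.3% and 50% passed, against 53.8% and 53.1% of all genes. Under median scaling the counts were 1 and 5, and 1 and 2. Malate dehydrogenase Mdh2 (1.03 and 1.06), the ligase subunit Suclg1 (0.92 and 0.83) and citrate synthase Cs (0.76 and 0.83) led the higher genes, and the 2-oxoglutarate dehydrogenase parts Dlst (-0.67 and -0.57) and Ogdh (-0.34 and -0.41) were lower. Between macrophages and monocytes 1 of 14 was higher (Idh3a, 0.39) and 1 lower (Sdhb, -0.35), with a median of 0.031. There 14.3% of the list passed, against 40.1% of all genes.

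Between genotypes, 5 genes of these 6 lists passed in macrophages, 1 in monocytes and 3 in cDC1s. In macrophages 3 of 15 tested genes of the hypoxia list passed, 20% against 5.39% of all genes, with 1 of 10 regulators, 1 of 7 pyruvate genes and 0 of the other 3 lists. In cDC1s 1 of 15 other glycolytic genes, 1 of 9 regulators and 1 of 8 pentose phosphate genes passed, against 6.7% of all genes. In macrophages the factors Hif1a (2.07, SE 0.57, limma adjusted p = 0.0384, detected on 3 of 5 WT and 5 of 5 Mbd2-/- arrays) and Arnt (1.16, adjusted p = 0.0423) and the subunit Pdhb (1.76, adjusted p = 0.0066, detected on 4 of 5 WT arrays) were higher in Mbd2-/- cells. Ndrg1 (-0.87, adjusted p = 0.0102) and Pfkfb4 (-0.40, adjusted p = 0.0392) were lower there. In monocytes Aldoc was lower (-0.63, adjusted p = 0.0239), 1 of 16 other glycolytic genes against 1.88% of all genes. In cDC1s Hk3 (1.58, adjusted p = 0.0068) and Pgls (0.61, adjusted p = 0.015) were higher and Pdp2, listed as 4833426J09Rik, lower (-0.73, adjusted p = 0.0409). Unlike the Pfkp call, these genotype calls were not refitted without single arrays or under other processing, so how far they depend on either is unknown.

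The splenic CD4 T cells were represented by 1 array per genotype, so their levels carry no test. With all 27 arrays normalized together, Slc2a1 was 8.89 and 9.15 in WT and Mbd2-/- T cells, below all colon arrays at 9.23 to 11.70. Pfkl at 8.01 and 7.73 was below the colon range of 8.11 to 9.71, and Tpi1 at 10.27 and 10.19 below that of 10.84 to 12.23. These 3 genes lay below every colon array, and 0 lay above; under median scaling Tpi1 alone stayed below. Pfkp was 10.87 and 10.81, within the cDC1 range of 9.21 to 11.38, and Ldha was 12.41 and 12.27. Gpi1 was 11.45 and 11.05, Aldoa 10.68 and 11.39, Pgk1 11.37 and 10.89, and Pkm2 11.57 and 11.84. The WT Pgk1 value was just above the colon maximum of 11.31. The T cell arrays differed in other cells' transcripts, with summed neutrophil markers of 23677 intensity units in WT and 5503 in Mbd2-/- and summed erythroid markers of 3137 and 15916, and a genotype difference in such content cannot be told apart from 1 in the genes with these arrays.

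**Figure D5:**
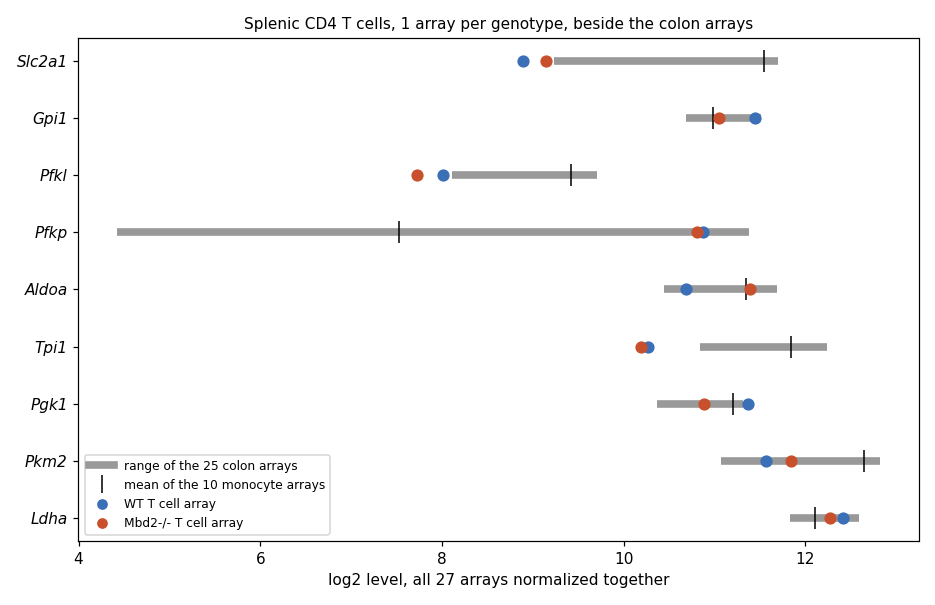
Log2 level (x axis) of the 9 measured genes (y axis) on the WT (blue) and Mbd2-/- (orange) splenic CD4 T cell arrays, beside the range of the 25 colon arrays (grey bar) and the mean of the 10 monocyte arrays (tick). Both T cell points lie below the bar for Slc2a1, Pfkl and Tpi1, and for Pfkp they lie at its upper end.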

How the data were processed

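RNA of 27 sorted samples was read on Illumina mouse BeadChips. The authors deposited a GenomeStudio table of average intensity per probe, with no normalization or background subtraction, a bead standard error and a detection p-value from negative controls. Per the labels' processing notes, lumi and limma (versions not given) were used after that, and 3 sets of signal columns that belong to no sample here were not used. Samples were grouped by their titles. From the intensities, background was corrected with normexp in limma 3.58.1 (R 4.3.3, data.table version 1.17.8) with control values inferred from the detection p-values and an offset of 16, then log2 values were quantile normalized over the 25 colon arrays (over all 27 for T cell levels). A probe was tested if detected (p under 0.05) on as many arrays as the smaller group compared. A linear model of 6 groups with moderated tests gave each comparison, with Benjamini-Hochberg adjustment over all probes tested and the brightest tested probe standing for a gene. Calls are at an adjusted p under 0.05. Summed marker intensities add levels taken out of log2 after background correction, with the offset of 16 left in, and quantile normalization. The number of arrays limits the precision.

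All 10 genes are described; of 6 lists of neighbouring genes, up to 4 genes per list and direction with the largest change among those past the threshold are named, with Gapdh, Eno1, Pgam1, Slc2a3, Slc16a3, Pfkfb3 and Hif1a. The members, lists and tests were chosen with earlier results of these data known. Alternatives were background left in, the 936 control probes used directly, a larger offset (50), cyclic loess or median scaling in place of quantiles, no or a stricter filter (p under 0.01), array weights, a random or fixed block, cell types or genotypes alone, an adjusted p under 0.01, a minimum change and leaving out each array. Scripts were tested on simulated data. Promoter windows are RefSeq's.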

Additional observations from a re-analysis of the deposited data

Results flagged for a closer look

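Among 36 groups of 5 arrays tested for a lone high or low array, 4 exceeded the Dixon limit of 0.71, where chance flags about 1 in 20. Mbd2-/- monocyte array 10 stood alone at the top for Pfkl (log2 level 9.75) and for Tpi1 (12.28). Mbd2-/- macrophage array 16 stood alone for Pfkl (9.25), and Mbd2-/- macrophage array 18 for Pgk1 (10.93). None of these genes passed between genotypes in the cell type concerned.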

How the results depend on the processing

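The number of arrays (2 WT cDC1s) and, for Pfkp, signal near background limit these results. Of the 9 genes, the count past the threshold between Mbd2-/- and WT macrophages (1) was 0 under median scaling, with no background correction or an offset of 50, no filter, cell types alone, array weights, adjusted p under 0.01, without arrays 10, 20, 23 and 27 and with the column sets as a fixed block (the last pair added after seeing the data). It was 1 in monocytes under array weights (Aldoa), and 1 in cDC1s with no background correction, an offset of 50, cyclic loess and a stricter filter (Pkm2). With a log2 change of at least 1 required it was 0, 3 and 2 between macrophages and monocytes, cDC1s and monocytes, and cDC1s and macrophages. Without a minimum change, the count between cDC1s and macrophages was 5 under median scaling, against 8 as reported. The genotype difference between cDC1s and macrophages had 1 with no background correction, an offset of 50 and cyclic loess (Pkm2) and under median scaling and a stricter filter (Pfkp). Leaving out each array gave 0 in monocytes, 0 to 1 in macrophages and in cDC1s, 6 to 7, 8 and 7 to 8 between cell types, and 0, 0 to 1 and 0 to 2 for the differences of the genotype effect. Over all settings the number of all genes past the threshold ranged from 55 to 885 in monocytes (225 as reported), 62 to 1129 in macrophages (674), 0 to 1557 in cDC1s (875), and 589 to 5487 (4864), 2172 to 7016 (6944) and 2099 to 7216 (7043) between cell types. With label numbers 10 apart as a random block (consensus correlation 0.165), Pfkp passed between macrophages and monocytes (-0.98). T cells had 1 gene below all colon arrays under median scaling.

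Reversed values under median scaling were, in monocytes, Pfkl -0.13, Slc2a1 -0.24 and Tpi1 -0.13; in macrophages Slc2a1 -0.044; in cDC1s Aldoa -0.077, Gpi1 -0.35, Pfkl -0.44, Pgk1 -0.42, Slc2a1 -0.23 and Tpi1 -0.11. Between cell types they were Gpi1 -0.20 and Ldha -0.12 (cDC1s and monocytes) and Pgk1 -0.15 and Tpi1 -0.41 (cDC1s and macrophages). Cyclic loess reversed Pgk1 in monocytes (0.011), Gpi1 in macrophages (0.0055) and Ldha in cDC1s (0.029). Array weights reversed Pgk1 (0.0049) and Slc2a1 (-0.00018) in monocytes and Gpi1 in macrophages (0.034). Without arrays 10, 20, 23 and 27, Gpi1 (0.0083) and Slc2a1 (-0.012) in monocytes, Gpi1 in macrophages (0.051) and Pgk1 in cDC1s (-0.026) reversed, and with the fixed block Pgk1 in monocytes (0.0041). Leaving out each array, values near 0 changed sign for Gpi1 (-0.037 to 0.036), Pgk1 (-0.029 to 0.021) and Slc2a1 (-0.039 to 0.056) in monocytes, Gpi1 in macrophages (-0.041 to 0.051), and Gpi1 (-0.00065 to 0.099), Pfkl (-0.13 to 0.46) and Pgk1 (-0.11 to 0.15) in cDC1s. The cause was not tested.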
